A study of Homo sapiens with 20 samples.

Results

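The genes described here make and desaturate fatty acids: SREBF1, ACLY, ACSS2, ACACA, FASN, ELOVL6, ELOVL5, SCD, FADS1 and FADS2. They were chosen by name as an established pathway, but with earlier results of these data known, so counts of called members are descriptions. All 10 were found among the 23368 gene rows of the deposited counts. ACLY splits citrate, and ACSS2 activates acetate, to give cytosolic acetyl-CoA; ACACA carboxylates it to malonyl-CoA, and FASN builds palmitate from malonyl-CoA and acetyl-CoA. ELOVL6 and ELOVL5 lengthen the chain, SCD places the first double bond in saturated chains, and FADS1 and FADS2 place further double bonds in polyunsaturated ones. SREBF1 encodes SREBP-1, a membrane-bound transcription factor that is released by cleavage and drives these genes, while its relative SREBP-2 (SREBF2) mainly drives the cholesterol synthesis and uptake genes, the cholesterol arm used here for comparison.

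RNA sequencing was done on 2 human cancer cell lines, Panc1 (pancreatic carcinoma) and A549 (lung adenocarcinoma). Each line had 4 groups: a control siRNA (siCont), TGFβ, a KLF10 siRNA (siKLF10), and both agents (siKLF10+TGFβ). The sample labels name only TGFβ for the TGFβ group and do not say whether it also had the control siRNA; if it did not, the effects of TGFβ and of the control siRNA cannot be told apart in comparisons with it. TGFβ, a cytokine that drives epithelial-to-mesenchymal transition, was given at 5 ng/ml for 72 h. KLF10 is a TGFβ-inducible Krüppel-like zinc finger factor that binds GC-rich promoter elements, and the series asks whether it restrains that transition. Panc1 had 3 libraries per group and A549 had 2, named A to C where the labels do not call them separate cultures, and the p-values then speak only of the spread among these libraries. The labels give neither the siRNA sequences nor the time of transfection. In such bulk libraries, fewer cells of a kind and less RNA per cell cannot be told apart.

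KLF10 itself was counted first. Levels are CPM, gene counts scaled to a common library size by the trimmed mean of M values (TMM) over all 20 libraries. In Panc1, KLF10 stood at 142, 139 and 133 CPM in siCont, at 195, 187 and 208 CPM with TGFβ, at 80.8, 81.1 and 77.9 CPM in siKLF10, and at 102, 99.8 and 103 CPM in siKLF10+TGFβ. The siKLF10 groups lay below their controls without overlap, by -0.76 ± 0.060 on the log2 scale (SE, n = 3; adjusted p = 2.58e-09) without TGFβ and by -0.94 ± 0.059 (adjusted p = 4.96e-11) with it. In A549 the 2 siCont libraries held 109 and 106 CPM and the 2 libraries labelled siKLF10 held 99.8 and 106 CPM, a difference of -0.047 ± 0.080 (adjusted p = 0.743). With TGFβ, A549 held 179 and 178 CPM in the TGFβ group and 151 and 143 CPM in the libraries labelled siKLF10+TGFβ, -0.29 ± 0.078 (adjusted p = 0.00775). A lowered KLF10 transcript was therefore not detected in the A549 libraries labelled siKLF10 without TGFβ, and A549 groups are called by their labels below. Here and throughout, adjusted p-values are edgeR quasi-likelihood p-values after Benjamini-Hochberg correction across every gene tested in that line, a gene is called when the adjusted p is below 0.05, and errors of log2 fold changes are standard errors.

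Panc1 libraries held 11152625 to 15571367 gene counts and A549 libraries 6846761 to 19070551, so that 3 counts, the floor used here, were worth at most 0.438 CPM, far below the least abundant of these genes. Reads outside annotated genes made up 33.6 to 36.9% in Panc1 and 57.6 to 60.1% in A549, a gap that moves with every comparison of the lines; its part in those comparisons was not tested. Most lineage markers were low: the 6 lung markers summed to 1.87 to 1.91 CPM in A549 siCont, while the 7 pancreatic markers summed to 462.5 to 469.8 CPM in Panc1 siCont with PTF1A, CPA1, PRSS1 and INS at 0. Several marker lists moved with the groups. The 7 pancreatic markers summed to 274 to 292 CPM in Panc1 with TGFβ and 389 to 401 CPM in siKLF10, and in A549 to 39.1 to 41.7 CPM in siCont, 85.3 to 97.0 CPM with TGFβ, 43.0 to 49.6 CPM in the libraries labelled siKLF10 and 120 to 133 CPM in those labelled siKLF10+TGFβ. The 7 fat cell markers, with ADIPOQ and LEP at 0, summed in Panc1 to 10.4 to 13.5 CPM in siCont, 30.8 to 39.4 CPM with TGFβ, 5.99 to 7.67 CPM in siKLF10 and 19.95 to 22.3 CPM in siKLF10+TGFβ. In A549 they summed to 12.6 to 13.5 CPM in siCont, 2.32 to 3.25 CPM with TGFβ and 3.27 to 3.32 CPM in the libraries labelled siKLF10. The libraries labelled siKLF10+TGFβ stood apart from each other, A at 3.55 CPM and B at 18.95 CPM, of which FABP4 gave 10.7 CPM, and ADIPOQ and LEP were at 0 in A and at 1.03 and 0.38 CPM in B. The 7 fibroblast markers were higher in sum with TGFβ, from 60.6 to 63.0 CPM up to 93.8 to 98.0 CPM in Panc1 and from 1.47 to 2.02 CPM up to 10.3 to 12.7 CPM in A549. In Panc1 the 7 squamous markers summed to 31.0 to 91.9 CPM in siCont, where library A was the highest, against 10.4 to 13.1 CPM in siKLF10 and 11.1 to 18.8 CPM with TGFβ, and in A549 to 2.38 to 2.94 CPM in siCont against 14.5 to 15.02 CPM with TGFβ. The 5 blood cell markers summed in Panc1 to 269 to 288 CPM in siCont, 158 to 172 CPM with TGFβ, 73.3 to 94.6 CPM in siKLF10 and 37.9 to 55.5 CPM in siKLF10+TGFβ; CD3E was at 0 throughout, and CD68, a lysosomal protein also made outside blood cells, supplied 267 to 287 CPM of the siCont sum. The part of these lists in the results below was not tested.

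The upstream sequences of the regulator SREBF1 and of SCD and ACLY, for which the Panc1 interaction was called, are shown because KLF-type factors bind GC boxes and SREBP targets often carry a CCAAT box for NF-Y beside the SREBP site. The sequences are RefSeq's (GRCh38.p14) for the most upstream start listed per gene, and bases inside any GENCODE v29 exon were left out. Capitals mark CCAAT (NF-Y) and GGGCGG (GC box), each on either strand, and the text reads 5′ to 3′ on the gene's strand. SCD is chr10:100346983-100347123 on the plus strand, ACLY is chr17:41919023-41919272 on the minus strand, and SREBF1 is chr17:17837003-17837236 on the minus strand.
SCD: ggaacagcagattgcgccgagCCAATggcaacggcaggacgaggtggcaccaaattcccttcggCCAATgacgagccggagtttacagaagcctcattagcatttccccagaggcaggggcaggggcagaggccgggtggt
ACLY: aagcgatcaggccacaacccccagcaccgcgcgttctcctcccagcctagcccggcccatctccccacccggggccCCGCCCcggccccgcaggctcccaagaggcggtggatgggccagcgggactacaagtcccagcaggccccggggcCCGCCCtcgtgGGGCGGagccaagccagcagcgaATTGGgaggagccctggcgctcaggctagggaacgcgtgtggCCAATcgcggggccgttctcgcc
SREBF1: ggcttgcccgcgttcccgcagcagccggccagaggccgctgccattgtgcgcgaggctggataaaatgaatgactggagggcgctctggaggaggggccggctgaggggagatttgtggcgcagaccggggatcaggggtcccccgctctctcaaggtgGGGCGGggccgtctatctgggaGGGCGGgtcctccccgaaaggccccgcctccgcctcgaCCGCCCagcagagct

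Over the whole 250 bases before the start, SCD held 2 CCAAT boxes and 2 GC boxes, ACLY held 2 and 3, and SREBF1 held 0 and 3. A window was in the RefSeq table for 9 of the 10 members, FASN being the one without an entry. Counting any match on either strand, a GC box stood in 7 of 9 windows (77.8%) against 42.2% of 27305 genes with a window and 16 of 18 windows (88.9%) of the cholesterol arm. The 2 windows with no GC box were those of ELOVL5 and FADS2, and that of FADS2 held none of the motifs searched. A CCAAT box stood in 4 of 9 windows (44.4%: SCD, ACLY, ELOVL5, ACSS2) against 33.0% of all genes and 14 of 18 (77.8%) of the cholesterol arm. The letters TCACNCCAC, an SREBP site form, stood in 0 of 9 windows against 0.868% of all genes and 1 of 18 (5.56%) of the cholesterol arm. For a match this rare, 9 windows are too few to show a lack of such sites. The E-box CACGTG stood in 1 of 9, ELOVL5, against 6.46% of all genes and 2 of 18 (11.1%) of the cholesterol arm. Overlapping matches were counted apart, as in ACACA, which held 5 GC boxes, 4 of them in 1 repeat; a match is a description of letters and not a bound site. FADS1 and FADS2 lie on opposite strands of chromosome 11, with starts 599 and 800 bases apart depending on the FADS2 start. The FADS1 start (61817003, minus strand) lies above the FADS2 starts (61816203 and 61816404, plus strand), so their 5′ ends overlap. The FADS2 window therefore lies inside the FADS1 gene. The library kit is directional, but the sources used here do not give the strand setting of the counting. SCD and FADS2 have the annotated pseudogene copies SCDP1 and FADS2P1, so reads shared with such copies or between the neighbours are uncertain.

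Panc1 carried far more SCD transcript than A549 under the control siRNA. In siCont, SCD held 3679, 3577 and 3828 CPM in Panc1 against 156 and 136 CPM in A549, a difference of 4.59 ± 0.083 log2 units (Panc1 minus A549, 24.1-fold; adjusted p = 4.41e-31). FADS2 followed at 2.25 ± 0.089, ELOVL5 at 1.74 ± 0.082, FASN at 1.23 ± 0.090 and ACACA at 0.93 ± 0.073. FADS1 (0.72 ± 0.074) and ELOVL6 (0.59 ± 0.11) were also higher in Panc1. ACLY alone of the 10 was called higher in A549, at 786 and 730 CPM against 378, 362 and 383 CPM in Panc1, -1.09 ± 0.066. SREBF1, at 112, 106 and 108 CPM in Panc1 and 102 and 97.9 CPM in A549, was not called (0.051 ± 0.089), nor was ACSS2 (0.089 ± 0.10). The 95% interval of the SREBF1 difference ran from -0.13 to 0.23, while 7 enzymes were called higher in Panc1 and 1 in A549. Of all 15058 genes tested across the lines, 39% were called higher and 42.9% lower in Panc1. The cholesterol arm had 22 of 25 genes higher and 3 lower, with INSIG1 (3.51 ± 0.10) the highest.

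Compared between genes per kilobase of exon (GENCODE v29 lengths, n = 3, ± SD), SCD led in Panc1 siCont with 689 ± 23.5 CPM per kb. ELOVL5 (114 ± 2.82), ACLY (85.5 ± 2.57), FADS2 (79.1 ± 6.24), FASN (59.0 ± 6.46) and FADS1 (53.2 ± 2.03) came next. SREBF1 (24.2 ± 0.662), ACACA (22.8 ± 1.22), ACSS2 (10.5 ± 0.867) and ELOVL6 (8.95 ± 0.572) closed the order. Libraries of ACLY and FADS2, of FASN and FADS1, and of SREBF1 and ACACA overlapped, so these neighbours are not separated. In A549 siCont the order opened with ACLY at 173 ± 9.11 CPM per kb (n = 2), followed by ELOVL5 (32.5 ± 2.08) and FADS1 (30.9 ± 1.89), whose libraries overlapped, then by SCD at 27.2 ± 2.60. ELOVL6 was last in both lines, at 5.67 ± 0.0183 in A549.

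**Figure D1:**
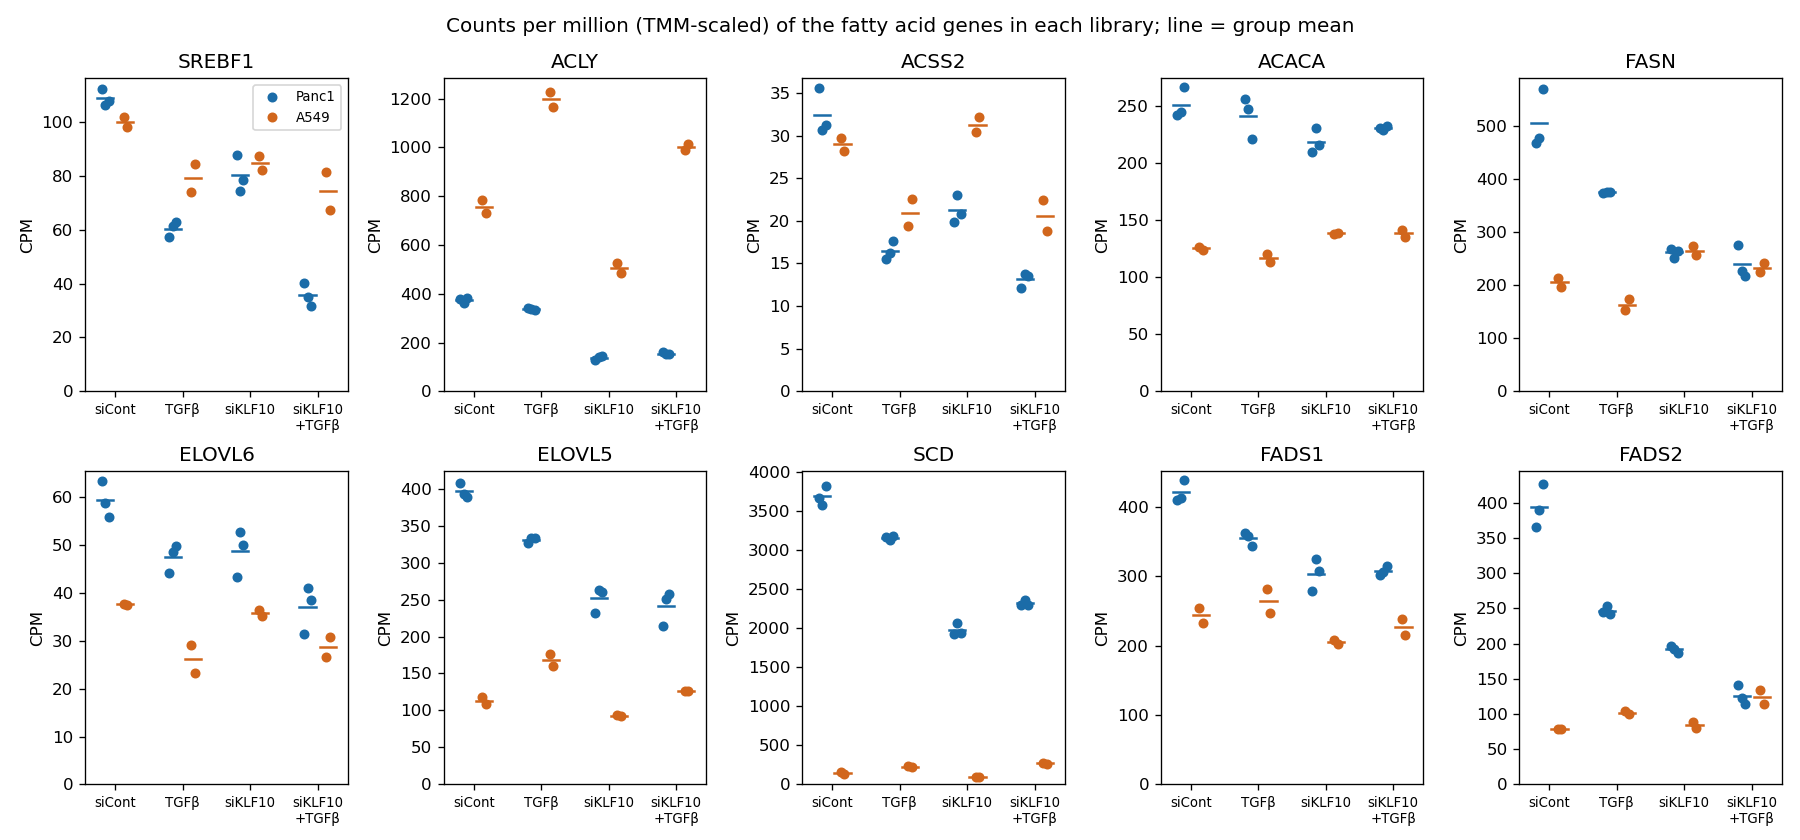
CPM (vertical axes, linear from 0) of each fatty acid gene in every library, by condition; points are libraries (Panc1 blue, 3 per group; A549 orange, 2 per group) and short lines are group means. Among Panc1 groups, siCont has the highest mean for each of the 10 genes, SCD in A549 lies near the bottom of the shared axis, and ACLY is the panel in which every A549 library lies above every Panc1 library.

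In Panc1 the genes of this pathway were lower in the siKLF10 libraries. Whether the loss of KLF10 or another action of the siRNA lowered them was not tested. All 10 genes were called lower in siKLF10 than in siCont and none higher, where 18.3% of the 13218 genes tested were called lower and 17.3% higher. Their median log2 fold change was -0.60, against 0.00091 over all genes tested. The fall was deepest for ACLY, FADS2, FASN and SCD and shallow for ELOVL6 and ACACA.

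At the regulator, SREBF1 went from 112, 106 and 108 CPM in siCont to 87.8, 74.3 and 78.4 CPM in siKLF10, a fall without overlap of -0.41 ± 0.079 (adjusted p = 0.000334). ACLY, the citrate-splitting supplier of acetyl-CoA, went from 378, 362 and 383 CPM to 129, 141 and 145 CPM. That is 2.65-fold lower, -1.41 ± 0.055 (adjusted p = 4.23e-14), the largest change of the set. The acetate-activating ACSS2 went from 35.5, 30.6 and 31.2 CPM to 19.9, 23.0 and 20.8 CPM, -0.58 ± 0.092 (adjusted p = 3.56e-05).

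Fatty acid synthase, FASN, went from 469, 478 and 569 CPM in siCont, where library C stood above the others, to 269, 252 and 265 CPM in siKLF10, -0.92 ± 0.078 (adjusted p = 1.12e-08). Its substrate enzyme ACACA was lower by a small margin, from 242 to 267 CPM down to 210 to 231 CPM, -0.17 ± 0.062 (adjusted p = 0.0358). The ACACA call was lost without siCont B (adjusted p = 0.0581), siCont C (0.158), siKLF10 A (0.0921) or siKLF10 C (0.146), and with only the 2 groups in the fit (0.0508). Among the elongases, ELOVL5, which lengthens polyunsaturated chains, went from 389 to 408 CPM down to 232 to 263 CPM, -0.63 ± 0.067 (adjusted p = 2.09e-07). ELOVL6, which lengthens palmitate, was lower by -0.25 ± 0.092 (adjusted p = 0.0342). That call was lost without siCont A (adjusted p = 0.13), siCont B (0.0733), siKLF10 A (0.138) or siKLF10 C (0.0778).

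The desaturases fell together. SCD went from 3679, 3577 and 3828 CPM to 1935, 2066 and 1946 CPM, -0.87 ± 0.054 (adjusted p = 5.14e-11). FADS2, the delta-6 desaturase, went from 365, 389 and 427 CPM to 197, 192 and 186 CPM, -1.01 ± 0.070 (adjusted p = 2.90e-10). For its neighbour FADS1, the delta-5 desaturase, the change was smaller, from 411 to 439 CPM down to 279 to 325 CPM, -0.44 ± 0.058 (adjusted p = 3.72e-06). No siCont library overlapped a siKLF10 library for any of the 10 genes. The share of all genes without overlap was not counted, so non-overlap is only a description throughout. In A549, siCont and siKLF10 libraries did not overlap for any of the 10 genes either. That includes the 6 that were not called there, such as ELOVL6 (-0.049) and FADS2 (0.12).

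Most of these genes were also lower in the Panc1 TGFβ group than in siCont. Of the 10 genes 8 were called lower and none higher, where 15.1% of genes tested were called lower and 14% higher, and the median was -0.28 against -0.0049 over all genes. This comparison and the siKLF10 one share the siCont libraries, so the values stand side by side and their likeness is not read as a result.

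SREBF1 went from 112, 106 and 108 CPM to 57.2, 61.2 and 62.8 CPM with TGFβ, -0.84 ± 0.080 (adjusted p = 2.09e-08). ACSS2 fell the most, to 15.5, 16.2 and 17.6 CPM, -0.97 ± 0.094 (adjusted p = 2.42e-08). ACLY, with the largest fall under siKLF10, held 343, 336 and 335 CPM with TGFβ, below every siCont library. It was not called at -0.14 ± 0.053 (adjusted p = 0.0563). The call on ACLY was reached with DESeq2 (adjusted p = 0.0429) and with only these groups in the fit (0.0387). ACACA did not pass the test (-0.048 ± 0.062, adjusted p = 0.616).

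FASN held 375, 375 and 375.5 CPM with TGFβ, -0.42 ± 0.078 (adjusted p = 0.000212). FADS2 went to 245, 253 and 242 CPM, -0.66 ± 0.069 (adjusted p = 8.21e-08), while SCD went to 3172, 3140 and 3187 CPM, -0.21 ± 0.054 (adjusted p = 0.00407). Each TGFβ group of these lay wholly below siCont. ELOVL5 (-0.25 ± 0.066), FADS1 (-0.24 ± 0.058) and ELOVL6 (-0.31 ± 0.092, adjusted p = 0.0122) fell by less than FADS2. The ELOVL6 call was lost without siCont A (adjusted p = 0.0667) or without TGFβ A (0.0845).

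With TGFβ present, most of the genes were again lower in the Panc1 siKLF10 libraries. Between siKLF10+TGFβ and TGFβ, 9 of 10 were called lower and none higher (20.6% and 21.1% of genes tested), with a median of -0.44. ACLY went to 160, 153 and 153 CPM, -1.11 ± 0.055, and FADS2 to 140, 123 and 114 CPM, -0.96 ± 0.071. SREBF1 reached its lowest levels there, 40.3, 35.1 and 31.7 CPM, -0.74 ± 0.086 (adjusted p = 5.23e-07). FASN (276, 228 and 218 CPM, -0.63 ± 0.078), ELOVL5 (-0.45 ± 0.067), SCD (2301, 2368 and 2307 CPM, -0.43 ± 0.054), ELOVL6 (-0.35 ± 0.095) and FADS1 (-0.19 ± 0.058) were also lower. ACSS2 was called at -0.31 ± 0.10 (adjusted p = 0.0185), a call lost without TGFβ C (0.0844) or siKLF10+TGFβ A (0.0859). ACACA, the malonyl-CoA maker, gave -0.053 ± 0.062 (adjusted p = 0.524).

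Among the Panc1 groups with siKLF10, TGFβ changed 6 of the 10 genes. Between siKLF10+TGFβ and siKLF10, 4 genes were called lower and 2 higher, where 22.3% and 22.6% of all genes tested were. SREBF1 (-1.17 ± 0.085), ACSS2 (-0.70 ± 0.10), FADS2 (-0.61 ± 0.071) and ELOVL6 (-0.41 ± 0.095) fell. SCD was higher by 0.22 ± 0.054 (adjusted p = 0.00179), as was ACLY by 0.16 ± 0.055 (adjusted p = 0.0251). For ACLY the call was lost without siKLF10 A (adjusted p = 0.114) or siKLF10+TGFβ B (0.0543), without the low-count filter (0.0551) and with only these groups in the fit (0.0566). FASN, not called at -0.13 ± 0.079 (adjusted p = 0.187), was called lower without siKLF10+TGFβ A (-0.23, adjusted p = 0.0117). ACACA (0.070 ± 0.062), ELOVL5 (-0.070 ± 0.067) and FADS1 (0.014 ± 0.058) did not pass either.

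The interaction term asks whether the 2 treatments together gave another change than their sum on the log2 scale. It was called for 2 of 10 genes, both higher than the sum, where 2.56% of genes tested were called higher and 1.86% lower. SCD gave 0.44 ± 0.076 (adjusted p = 0.00139), and was called on leaving out any of the 12 libraries. ACLY gave 0.29 ± 0.077 (adjusted p = 0.0297), a call lost without siCont A, any TGFβ library, siKLF10 A or C, or siKLF10+TGFβ B or C (adjusted p from 0.0515 to 0.084) and without the low-count filter (0.0558). SREBF1 lay the other way and did not pass (-0.33 ± 0.12, adjusted p = 0.115). Without siKLF10+TGFβ A, SREBF1 was called lower (-0.42, adjusted p = 0.0204), and ELOVL5 (0.27, 0.0353) and FADS1 (0.28, 0.0396) were called higher; FADS1 was also called without siKLF10 B (0.29, 0.0454). With all libraries, ELOVL5 (0.18 ± 0.094), FADS1 (0.25 ± 0.082), FASN (0.29 ± 0.11), ACSS2 (0.27 ± 0.14), ACACA (0.12 ± 0.088), FADS2 (0.053 ± 0.099) and ELOVL6 (-0.097 ± 0.13) did not pass.

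**Figure D2:**
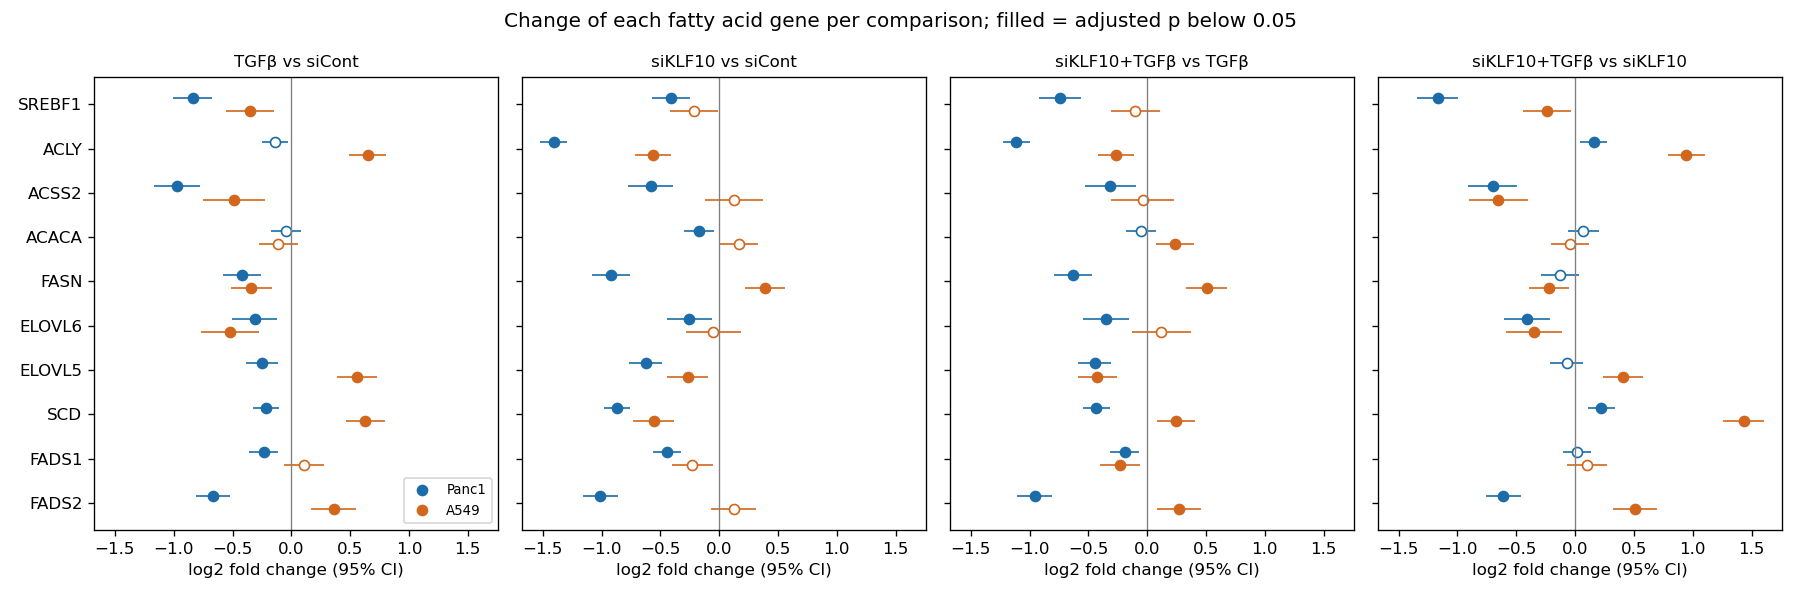
Log2 fold change of each fatty acid gene (horizontal axes) with its 95% confidence interval in the 4 comparisons of conditions, for Panc1 (blue) and A549 (orange); filled points passed the test. Under siKLF10 vs siCont every Panc1 point lies left of 0, from -1.41 for ACLY to -0.17 for ACACA, while FASN in A549 lies right of 0 at 0.39.

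The cholesterol arm of Panc1 also lay mostly lower. Under siKLF10, 21 of the 24 cholesterol genes tested were called lower and 0 higher, with a median of -0.60 for both lists. HSD17B7 (-1.13 ± 0.15), FDPS (-1.03 ± 0.066) and the sterol sensor INSIG1 (-0.98 ± 0.065) changed the most. Under TGFβ, 9 of 24 cholesterol genes were called lower and 1 higher (median -0.13), against 8 of the 10 fatty acid genes (median -0.28). TM7SF2, a sterol reductase, was the lowest of them at -1.83 ± 0.13. Against TGFβ alone, siKLF10+TGFβ had 17 of 24 called lower (median -0.35). Against siKLF10 it had 9 higher and 5 lower (median 0.097), where 22.6% of genes tested were called higher and 22.3% lower. The share called lower was thus near that of all genes. STARD4 (0.51 ± 0.10) and TM7SF2 (-2.21 ± 0.15) were among those called. The interaction was called higher for 8 of 24 and lower for 0, with HMGCS1 (0.48 ± 0.11), an entry enzyme of the sterol path, and FDFT1 (0.44 ± 0.10), a squalene-making enzyme, among them. The shares of all genes called in these Panc1 comparisons are those given above for the fatty acid genes. No test compared one list with the other.

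Other lipid genes of Panc1 are given by list. Of 16 further fatty acid enzymes tested, 8 were called lower and 0 higher under siKLF10, the most changed being PTPLAD1, a chain-elongation dehydratase (-1.11 ± 0.062), and SLC25A1, the citrate carrier that feeds ACLY (-0.68 ± 0.077). Of the glycerolipid genes, 4 were called higher and 5 lower of 13, with LPIN1 at -0.86 ± 0.081 and DGAT2 at 0.54 ± 0.088. Of the fatty acid oxidation genes, 4 were called higher and 4 lower of 22, shares near the 17.3% and 18.3% of all genes. Under TGFβ, 15 of the 22 oxidation genes were called lower and 0 higher, where 15.1% and 14% of genes tested were. Their median was -0.295, beside -0.28 for the fatty acid synthesis genes. The carnitine transferase CPT1A (-0.59 ± 0.061) and the nuclear receptor PPARA (-0.79 ± 0.096) were among those called lower. Of 10 regulators of lipid genes, 3 were called higher and 3 lower under siKLF10. PPARGC1B, a coactivator of SREBP, gave -0.95 ± 0.11 and MBTPS2, which cleaves SREBPs, gave 0.50 ± 0.081. In the TGFβ group 2 of these 10 were called lower than in siCont, PPARG (-0.69 ± 0.061) and MLXIPL (-0.94 ± 0.31), and 0 higher.

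In A549, the fatty acid genes of the TGFβ group differed from siCont in both directions. Of the 10 genes 4 were called higher and 4 lower, where 24.2% and 23.5% of the 14124 genes tested were, and the median was -0.00063. As in Panc1, this comparison shares its siCont libraries with the siKLF10 one. The genes that rose were ACLY, SCD, ELOVL5 and FADS2, and those that fell were ELOVL6, ACSS2, SREBF1 and FASN.

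ACLY went from 786 and 730 CPM in siCont to 1228 and 1166 CPM with TGFβ, 0.65 ± 0.075 (adjusted p = 2.23e-07). SCD went from 156 and 136 CPM to 233 and 221 CPM, 0.63 ± 0.080 (adjusted p = 1.06e-06). ELOVL5 went from 118 and 108 CPM to 177 and 160 CPM, 0.56 ± 0.082 (adjusted p = 6.10e-06). These groups did not overlap, and neither did those of FADS2, at 79.2 and 78.4 CPM against 104 and 100.2 CPM (0.36 ± 0.092, adjusted p = 0.00256).

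Among the genes that fell, ELOVL6 went from 37.7 and 37.5 CPM to 29.1 and 23.2 CPM, -0.52 ± 0.12 (adjusted p = 0.000976). ACSS2 (-0.49 ± 0.13, adjusted p = 0.00285) was lower too, and lost its call without TGFβ A (0.0929). SREBF1 went from 102 and 97.9 CPM to 73.9 and 84.3 CPM, -0.35 ± 0.098 (adjusted p = 0.00549), and FASN from 214 and 196 CPM to 154 and 174 CPM, -0.34 ± 0.083 (adjusted p = 0.00183). Without siCont A neither of the latter was called (adjusted p = 0.0606 for SREBF1 and 0.0601 for FASN), nor without TGFβ A (0.141 and 0.0754). ACACA (-0.11 ± 0.079) and FADS1 (0.11 ± 0.082) did not pass. Of the 25 cholesterol genes, 10 were called lower and 3 higher, with HMGCS1 (-1.75 ± 0.088) and TM7SF2 (-0.74 ± 0.19) among the former. Of the 23 oxidation genes, 13 were lower and 2 higher.

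The A549 libraries labelled siKLF10 differed from siCont in 4 of the 10 genes, 1 higher and 3 lower, where 9.57% of genes tested were called higher and 9.96% lower. FASN was the gene that rose, from 214 and 196 CPM to 273 and 256 CPM, 0.39 ± 0.082 (adjusted p = 0.00185). The FASN call was lost without siCont B (adjusted p = 0.066) or without siKLF10 A (0.0523). ACLY went down from 786 and 730 CPM to 526 and 487 CPM, -0.56 ± 0.075 (adjusted p = 1.60e-05), and SCD from 156 and 136 CPM to 96.1 and 99.5 CPM, -0.56 ± 0.083 (adjusted p = 5.17e-05). ELOVL5 was called at -0.27 ± 0.083 (adjusted p = 0.0272), and was not called when any of the 4 libraries was left out (siCont A or B, siKLF10 A or B, adjusted p from 0.0645 to 0.288) or with DESeq2 (0.0639). FADS1 (-0.23 ± 0.083, adjusted p = 0.0557) passed without the low-count filter (0.0335) and with only these groups in the fit (0.00384), where SREBF1 (-0.22 ± 0.097 with all groups) passed too (0.0179). ACACA (0.17 ± 0.078), FADS2 (0.12 ± 0.092), ACSS2 (0.12 ± 0.12) and ELOVL6 (-0.049 ± 0.11) did not pass. In the cholesterol arm 3 genes were higher and 3 lower of 25, PMVK (-0.53 ± 0.11) among the latter.

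Under TGFβ, the A549 libraries labelled siKLF10+TGFβ had 4 genes called higher and 3 lower than TGFβ alone, where 14.4% and 13.9% of genes tested were. FASN, at 225 and 241 CPM against 154 and 174 CPM, was higher by 0.51 ± 0.083 (adjusted p = 9.06e-05), and ELOVL5, at 127 and 126 CPM against 177 and 160 CPM, was lower by -0.42 ± 0.081 as a log2 fold change (adjusted p = 0.000476). Both were called on leaving out any of the 4 libraries. The other 5 calls were not. FADS2 (0.27 ± 0.090) lost its call without TGFβ A (adjusted p = 0.117), TGFβ B (0.159) or siKLF10+TGFβ A (0.148), and SCD (0.25 ± 0.079) without TGFβ A (0.081) or B (0.169). ACACA (0.24 ± 0.079) lost it without TGFβ A (0.0757) or B (0.193), ACLY (-0.27 ± 0.074) without TGFβ A (0.12), and FADS1 (-0.23 ± 0.082) without TGFβ A (0.4) or siKLF10+TGFβ B (0.156). With only these groups in the fit, SCD (0.0639), ACACA (0.0975), FADS1 (0.0808) and FADS2 (0.08) were not called, and with DESeq2 ACACA (0.0652), FADS1 (0.0739) and FADS2 (0.0766) were not. SREBF1 (-0.10 ± 0.10), ACSS2 (-0.038 ± 0.13) and ELOVL6 (0.12 ± 0.12) did not pass, although SREBF1 was called lower without siKLF10+TGFβ A (-0.23, 0.0395). Of the cholesterol genes, 4 were higher and 4 lower of 25, PMVK (-0.68 ± 0.12) among the latter.

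Among the A549 libraries labelled siKLF10, TGFβ gave a larger SCD change than any other comparison of conditions in either line. SCD went from 96.1 and 99.5 CPM to 273 and 268 CPM, 2.70-fold higher, 1.43 ± 0.082 (adjusted p = 2.20e-12). ACLY rose from 526 and 487 CPM to 987 and 1015 CPM, 0.95 ± 0.075, and FADS2 from 89.2 and 79.5 CPM to 134 and 114 CPM, 0.51 ± 0.091. ELOVL5 (0.41 ± 0.083) was called higher as well. Without siKLF10+TGFβ B, the library with the higher fat cell markers, the log2 fold changes were 1.45 for SCD, 0.93 for ACLY, 0.62 for FADS2 and 0.42 for ELOVL5, all called. The 4 called lower were ACSS2 (-0.65 ± 0.12, adjusted p = 0.000116), ELOVL6 (-0.35 ± 0.11, 0.0136), SREBF1 (-0.24 ± 0.098, 0.0472) and FASN (-0.22 ± 0.081, 0.0269). ELOVL6 lost its call without siKLF10 A (0.1), SREBF1 without siKLF10 A (0.284) or B (0.0665) or siKLF10+TGFβ B (0.433) and under RLE scaling (0.057), and FASN without siKLF10 A (0.222) or siKLF10+TGFβ A (0.0593). DESeq2 did not call ELOVL6 (0.0715), SREBF1 (0.146) or FASN (0.0749), and a fit of only these groups did not call SREBF1 (0.107) or FASN (0.0589). ACACA (-0.039 ± 0.078) and FADS1 (0.10 ± 0.083) did not pass. In the cholesterol arm 5 genes were higher and 10 lower of 25, HMGCS1 (-1.49 ± 0.085) among the latter. Of all genes tested, 26.5% were called higher and 26.8% lower.

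The A549 interaction was called for SCD alone of the 10, at 0.80 ± 0.11 (adjusted p = 0.00018), higher than the sum of the separate changes as in Panc1, and on leaving out any of the 8 libraries (0.82 without siKLF10+TGFβ B). Of genes tested, 3.26% were called higher and 3.23% lower. ACLY, at 0.30 ± 0.10 (adjusted p = 0.105), was called without siKLF10+TGFβ A (0.32, 0.0122). The other 8 genes did not pass, from -0.16 ± 0.18 for ACSS2 to 0.17 ± 0.16 for ELOVL6. In the cholesterol arm the interaction was called higher for 1 gene of 25, SC5DL (0.65 ± 0.16), and lower for 1.

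**Figure D3:**
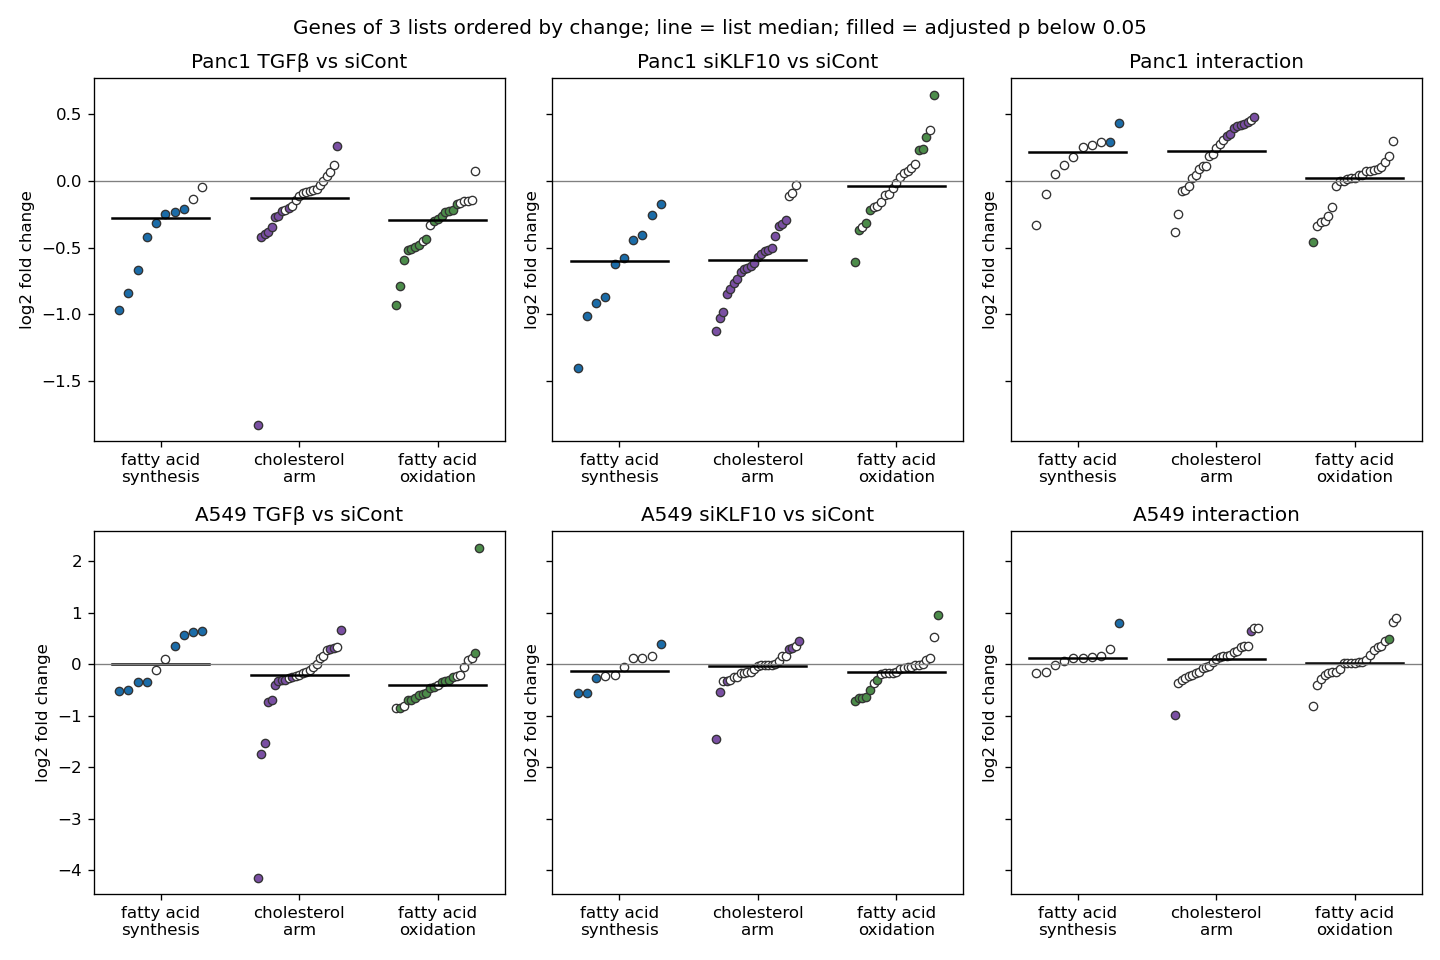
Log2 fold changes (vertical axes) of the fatty acid genes, the cholesterol arm and the fatty acid oxidation genes, each list ordered by its own values, in Panc1 (top) and A549 (bottom, wider axis); lines are list medians and filled points passed the test. Under Panc1 siKLF10 vs siCont the medians of the synthesis and cholesterol lists both lie at -0.60 with every point below 0, and the oxidation list lies around 0.

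The effects themselves were compared between the lines in 1 model of all 20 libraries, as the Panc1 log2 fold change minus the A549 one. For TGFβ the difference was called for 7 of 10 genes, all lower in Panc1, where 13.8% of the 15058 genes tested were called lower and 17.1% higher, and the median over all genes was 0.069. FADS2 (-0.95 ± 0.12, adjusted p = 1.07e-07), SCD (-0.76 ± 0.097), ELOVL5 (-0.73 ± 0.11) and ACLY (-0.71 ± 0.094) differed the most, and were called on leaving out any library of the 4 groups. SREBF1 (-0.41 ± 0.13, adjusted p = 0.0167) lost its call without A549 siCont B (0.0663) or TGFβ B (0.127). ACSS2 (-0.40 ± 0.16, adjusted p = 0.049) lost it without Panc1 siCont A, TGFβ A or TGFβ B, or without A549 siCont A, siCont B or TGFβ B (0.0751 to 0.244), with DESeq2 (0.0541) and with the replicate block (0.0586). FADS1 (-0.26 ± 0.10, adjusted p = 0.0494) lost it without Panc1 siCont B or C or any Panc1 TGFβ library, or without A549 siCont B or TGFβ A (0.0521 to 0.353). FASN gave -5.52e-05 and was not called. Its error is not given, because errors here were derived from the change and its test statistic, which is unstable for so small a value. Under the alternative settings and refits this difference ran from -0.101 to 0.0948. The fits of each line gave -0.42 ± 0.078 in Panc1 and -0.34 ± 0.083 in A549. ACACA (0.14 ± 0.10) and ELOVL6 (0.29 ± 0.16) did not pass. The cholesterol arm gave 6 higher and 3 lower of 25, with HMGCS1 at 1.74 ± 0.13.

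For siKLF10 without TGFβ, 7 of 10 genes were called lower in Panc1 than in A549 and none higher, where 8.65% and 8.59% of genes tested were. FASN differed the most, -1.28 ± 0.12 (adjusted p = 7.81e-09). It was lower than every control in all 3 Panc1 libraries and higher than both controls in both A549 libraries. FADS2 (-1.11 ± 0.12), ACLY (-0.82 ± 0.095) and ACSS2 (-0.68 ± 0.15) were next, and these 4 were called on leaving out any library of the 4 groups. ELOVL5 (-0.33 ± 0.11, adjusted p = 0.0365) lost its call without Panc1 siCont A or B or siKLF10 A or C, or A549 siCont B or siKLF10 A or B (0.0506 to 0.199). ACACA (-0.31 ± 0.10, 0.0324) lost it without Panc1 siCont C or siKLF10 A or C, or any A549 library of these groups (0.057 to 0.119). SCD (-0.29 ± 0.098, 0.0415) lost it without Panc1 siCont C or siKLF10 A or C, or A549 siCont B or siKLF10 A or B (0.0601 to 0.306). SREBF1 (-0.17 ± 0.13), FADS1 (-0.19 ± 0.10) and ELOVL6 (-0.18 ± 0.16) did not pass. KLF10 itself was lowered further in Panc1 (-0.68 ± 0.10), and its part in these differences was not tested. Of the cholesterol genes, 16 of 25 were called lower and 0 higher, with INSIG1 at -0.94 ± 0.15.

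For siKLF10 under TGFβ, again 7 of 10 were called lower in Panc1, where 12.3% of genes tested were called lower and 7.52% higher. FADS2 (-1.26 ± 0.12), FASN (-1.17 ± 0.13), ACLY (-0.88 ± 0.094), SCD (-0.71 ± 0.096) and SREBF1 (-0.67 ± 0.14) were called on leaving out any library of the 4 groups. ELOVL6 (-0.51 ± 0.17, adjusted p = 0.0258) lost its call without Panc1 TGFβ B or C or siKLF10+TGFβ A, or A549 TGFβ B or siKLF10+TGFβ B (0.0519 to 0.198), and ACACA (-0.32 ± 0.10, 0.0231) without Panc1 TGFβ A or B or A549 TGFβ B (0.0562 to 0.12) and without the low-count filter (0.0642). ACSS2 (-0.31 ± 0.16) did not pass, nor did ELOVL5 (-0.059 ± 0.11) and FADS1 (0.0061 ± 0.10), with 95% intervals from -0.28 to 0.17 and from -0.20 to 0.22. Of the cholesterol genes, 12 of 25 were lower and 1 higher.

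**Figure D4:**
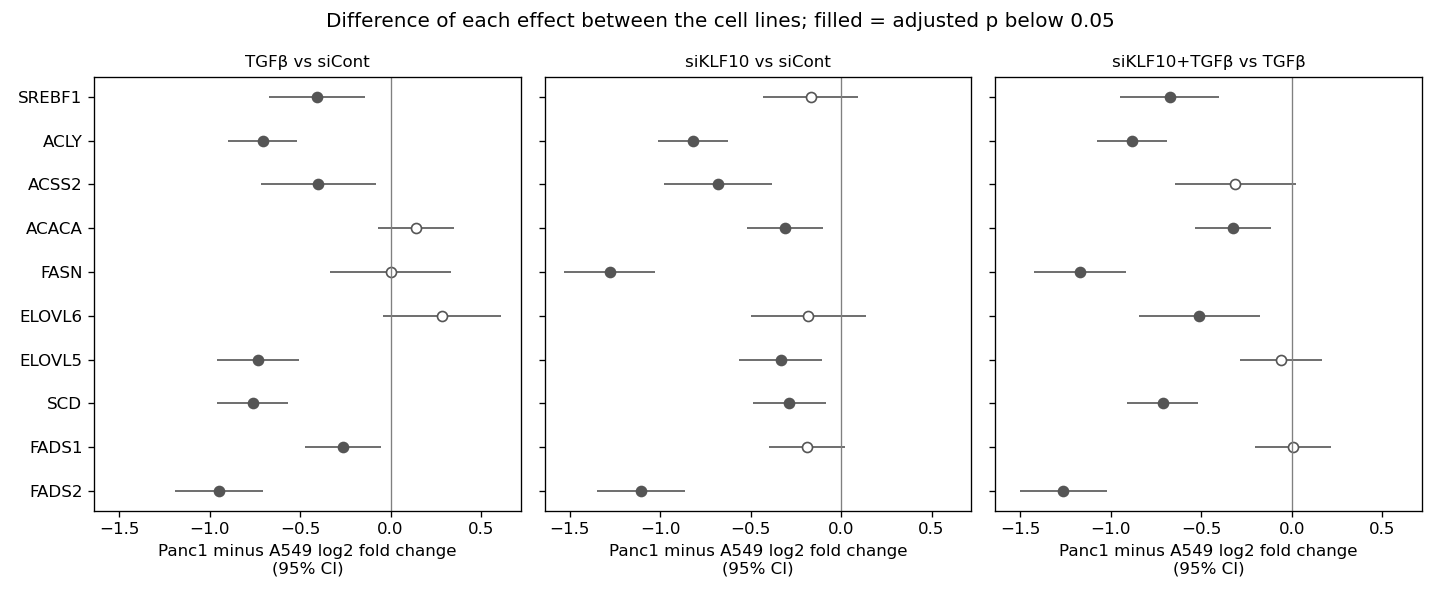
Panc1 minus A549 difference of each effect (log2 units, horizontal axes) with 95% confidence intervals for the fatty acid genes, by comparison; filled points passed the test. FASN lies at 0 for TGFβ and at -1.28 for siKLF10, and all called points lie left of 0. The interval drawn for FASN under TGFβ is unreliable, because its error is unstable for so small a value.

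Across the 12 Panc1 libraries the log2 CPM of these genes moved together: all 45 pairs had a positive Pearson r, with a median of 0.796 and a range from 0.204 (ACACA with SREBF1) to 0.976 (SCD with ACLY). SREBF1 followed ACSS2 (0.923) and FADS2 (0.875) more closely than SCD (0.422). Across the 8 A549 libraries 21 of 45 pairs were positive, the median was -0.196, and the range ran from -0.913 (SCD with ACSS2) to 0.949 (ACLY with ELOVL5). Points in each line share 4 conditions and their group means, so these are descriptions. Among all tested genes, those most like SCD over the Panc1 libraries were IER5 (r = 0.990), INSIG1 (0.987), HMGB3 (0.987), FAM216A (0.986) and NDE1 (0.985). Of these, INSIG1 had an r of 0.654 with SCD in A549 and IER5 had -0.887. Those most like FASN were OPA3 (0.979), ACTN4 (0.979), CTTN (0.978), H1FX (0.978) and OGDH (0.978). In A549 the genes most like SCD were ZNF703 (0.995), ROR1 (0.995), SSFA2 (0.992), C1orf126 (0.992) and SH3RF3 (0.991), and the genes most like FASN included C9orf68 (0.982), MIDN (0.982), INTS2 (0.980) and FAM160B1 (0.979).

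The authors' deposited tables of fold changes were read for the same genes. In 5 of the 6 tables all 10 genes had the sign found from the counts, and no value was further than 0.064 log2 units from it. For siKLF10+TGFβ against TGFβ the authors' adjusted p was below 0.05 for fewer genes than were called here. It was so for 3 against 7 in A549 and 8 against 9 in Panc1. The numbers were equal in the rest of these tables. The authors' deposited table for TGFβ in A549 was the exception in sign: 4 of 10 genes had the sign found from the counts, with differences up to 1.32. In that deposited table FASN stood at 0.72, ACSS2 at 0.83 and SREBF1 at 0.34, and KLF10 at -0.21, where the A549 counts gave -0.34, -0.49, -0.35 and 0.72. The A549 TGFβ results above rest on the counts, in which KLF10 was higher in both TGFβ libraries than in both siCont libraries. Why the deposited table differs from the counts was not tested.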

How the data were processed

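The authors' deposited tables of gene counts (HTSeq 0.6.0 after TopHat and Bowtie2 on hg19, per the submitters' processing notes) gave whole-number counts for 23368 genes in 20 libraries; reads outside genes stayed out of library sizes. Counts were tested as deposited with edgeR 4.0.16 (R 4.3.3): TMM scaling, filterByExpr with a minimum count of 10, robust quasi-likelihood fits per cell line, 1 term per group, Benjamini-Hochberg adjustment over all genes tested (13218 in Panc1, 14124 in A549, 15058 in the joint model), called below 0.05. The fits left 8, 4 and 12 residual degrees of freedom. DESeq2 1.42.0 was an alternative, beside relative log expression (RLE) scaling, no low-count filter, a block on the replicate letter, only the compared groups, and each library left out. The scripts were tested on simulated data. The authors' deposited comparison tables hold log2 fold changes, linear fold changes (1 A549 table) and adjusted p-values, and were used only where named. CPM per kb used GENCODE v29 exon lengths, an annotation later than the authors'. Intervals and floors cover counting error or the spread between libraries only.

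The members and comparison lists (25 cholesterol, 19 further fatty acid, 15 glycerolipid, 10 regulator and 23 oxidation genes, and markers) were chosen with earlier results of these data known. Named genes are all members, up to 4 called genes of largest change per list and comparison, and the 5 genes most correlated with FASN and SCD per line. Some genes that this rule picks are not reported here. Older symbols (SC5DL, PTPLAD1) are those of the count tables.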

Additional observations from a re-analysis of the deposited data

Results flagged for a closer look

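Each value here is a difference between effects that passed the test of the difference itself (edgeR's quasi-likelihood test, adjusted over all genes). Within Panc1, the interaction of siKLF10 and TGFβ was called for SCD (0.44, adjusted p = 0.00139) and ACLY (0.29, adjusted p = 0.0297). Within A549 it was called for SCD (0.80, adjusted p = 0.00018).

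Between the lines, as Panc1 minus A549, the TGFβ effect differed for FADS2 (-0.95), SCD (-0.76), ELOVL5 (-0.73), ACLY (-0.71), SREBF1 (-0.41), ACSS2 (-0.40) and FADS1 (-0.26). The siKLF10 effect without TGFβ differed for FASN (-1.28), FADS2 (-1.11), ACLY (-0.82), ACSS2 (-0.68), ELOVL5 (-0.33), ACACA (-0.31) and SCD (-0.29). Under TGFβ it differed for FADS2 (-1.26), FASN (-1.17), ACLY (-0.88), SCD (-0.71), SREBF1 (-0.67), ELOVL6 (-0.51) and ACACA (-0.32). The libraries whose removal ended the weaker of these calls are named beside the results.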

How the results depend on the processing

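Of the 92 values called for the 10 genes over the 14 comparisons, RLE scaling kept 91 on their side of the threshold, the replicate block 91, no low-count filter 89, DESeq2 84, and only the compared groups 60 of 68; none changed sign. Leaving out 1 library gave 588 refits of called values, of which 496 kept the call, 92 lost it and 0 changed sign. Where this left an A549 group with 1 library, that library is assumed to vary like the other groups.

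Some counts of called genes moved. For Panc1 siKLF10+TGFβ against siKLF10 the 2 higher became 1 without the filter and with only the compared groups (1 to 2 with a library left out). The 2 higher of the Panc1 interaction became 1 without the filter and 1 to 4 with a library left out, and its 0 lower became 0 to 1 (4 and 1 without siKLF10+TGFβ A). In A549, with a library left out, the 4 lower under TGFβ became 1 to 4, the 1 higher in siKLF10 against siCont 0 to 1, and the 1 higher of the interaction 1 to 2. The 3 lower in A549 siKLF10 against siCont became 5 with only the compared groups. For A549 siKLF10+TGFβ against TGFβ the 4 higher became 1 with only the compared groups, 2 with DESeq2 and 1 to 4 with a library left out, and the 3 lower 1 to 4. Against siKLF10 the 4 lower became 2 with only the compared groups, 1 with DESeq2 and 1 to 3 with a library left out. The 7 line differences became 4 to 6 for TGFβ and 4 to 7 for siKLF10 with a library left out.

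Values that changed sign were all uncalled. Without the filter the A549 interaction of FADS1 was 0.019. With a library left out the ranges were, in Panc1, -0.085 to 0.015 for ACACA under TGFβ, -0.027 to 0.059 for FADS1 and -0.12 to 0.021 for ELOVL5 in siKLF10+TGFβ against siKLF10, and -0.021 to 0.11 for FADS2 and -0.18 to 0.024 for ELOVL6 in the interaction. In A549 they were -0.015 to 0.30 for ELOVL6, -0.16 to 0.11 for ACSS2 and -0.23 to 0.043 for SREBF1 in siKLF10+TGFβ against TGFβ, and -0.086 to 0.091 for FADS1 and -0.017 to 0.26 for SREBF1 in the interaction. Between lines they were -0.083 to 0.095 for FASN under TGFβ, and -0.098 to 0.096 for FADS1 and -0.14 to 0.030 for ELOVL5 in siKLF10 under TGFβ. The causes were not tested.

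The replicate letters gave no clear pairing of the libraries, though pairing is not excluded. Deviations of same-letter Panc1 libraries from their group means had r from -0.158 to 0.316, over 0.1 in 2 of 18 pairs. Panc1 pairs of different letters had r from -0.307 to 0.217, over 0.1 in 6 of 36. In A549 same-letter r ran from -0.036 to 0.11. With 2 libraries per A549 group the different-letter values mirror these, so the check says little there. With the replicate block, FASN in the TGFβ line difference was 0.0014 and SREBF1 in the siCont line difference was -0.012, and the TGFβ line difference of ACSS2 lost its call (adjusted p = 0.0586). FADS1 in A549 siKLF10 against siCont gained one under it (adjusted p = 0.026). With 2 libraries per A549 group and KLF10 not lowered in one pair of groups, the A549 siRNA results are the least firm.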
